A study of Mus musculus with 20 samples.

Results

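The cytosolic ribosomal protein genes were taken as the autosomal protein-coding genes of the mouse RefSeq table whose symbol begins with Rpl, Rps or Rplp and a number, without the S6 kinase genes that share the letters. The rule gave 86 of the 21900 protein-coding genes of the table, on 18 chromosomes. Of these, 40 carry the name of a large subunit protein, 29 that of a small subunit protein and 3 that of the acidic stalk (P-stalk). Another 9 are like-named paralogs or partner genes, and 5 carry the name of a retrogene or pseudogene copy. The rule used no measured value.

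The study sequenced chromatin pulled down with an antibody to H3K27ac, the acetyl group on lysine 27 of histone H3 that is found at active promoters and enhancers, from hepatocytes freed from the liver by 2-step perfusion. There were 5 libraries from old mice (23 months, strain C57BL/6J) and 5 from young mice (5 months, strain C57BL/6N). Age and substrain cannot be told apart in this design, and whether the 5 libraries of an age stem from different mice is not stated, so that a p-value here sets a difference against the spread between these samples only. Both groups carried added human chromatin as a spike-in, which was not used here, so the total acetylation per age is not known.

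Ribosomal proteins assemble with ribosomal RNA into the small subunit, which reads the messenger RNA, and the large subunit, which joins the amino acids. Their genes lie scattered over the genome, have strong promoters that are active in nearly every cell type, and their proteins are made in balanced amounts. Many of their messenger RNAs begin with a run of pyrimidines, the terminal oligopyrimidine tract, through which growth signals acting by mTOR adjust their translation. In hepatocytes, which secrete most plasma proteins, ribosomes take up a large part of the cell's synthetic effort.

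A called region within 1 kb of either end of a gene was counted to that gene, and the authors' scaled tags (tags per 10000000 of the library) of its regions were summed. For 71 of the 86 genes such a region was present in all 10 libraries, a share of 82.6%. The share was 34% of all protein-coding genes and 67.9% of the mitochondrial ribosomal protein genes, which serve the separate ribosome of the mitochondrion. Another 4 genes were called in 9 libraries, 4 in 8 libraries, 2 in 1 library and 5 in none.

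Promoter windows from RefSeq (GRCm38.p6, 250 bases before to 50 after an annotated start) matched 65 of the 86 genes, and the first listed start of a gene was used. The stretches below, from 60 bases before the start to 15 bases from it on, are shown because they carry, or lack, the pyrimidine run counted next, and because the genes recur below. Capitals mark the unbroken run of C and T that covers the start, or in Rpl22l1 the TATA box letters. Rpl12, Rplp0 and Rpl22l1 are shown as genes with no such run. In Rpl12 the annotated start is a g and a run of C and T begins at the next base, so the count depends on the exact base annotated.
Rps6 (chr4:86857353-86857427, minus strand): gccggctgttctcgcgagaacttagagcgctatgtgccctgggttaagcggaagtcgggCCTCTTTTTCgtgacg
Rps24 (chr14:24490618-24490692, plus strand): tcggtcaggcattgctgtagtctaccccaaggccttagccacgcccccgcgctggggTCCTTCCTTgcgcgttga
Rps9 (chr7:3703981-3704055, plus strand): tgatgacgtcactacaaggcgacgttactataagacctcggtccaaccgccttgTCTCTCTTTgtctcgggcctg
Rpl27a (chr7:109519135-109519209, plus strand): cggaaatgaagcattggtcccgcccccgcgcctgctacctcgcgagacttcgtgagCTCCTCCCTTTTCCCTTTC
Rplp2 (chr7:141447591-141447665, plus strand): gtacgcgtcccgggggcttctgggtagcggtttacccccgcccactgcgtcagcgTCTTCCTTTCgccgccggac
Rpl38 (chr11:114668520-114668594, plus strand): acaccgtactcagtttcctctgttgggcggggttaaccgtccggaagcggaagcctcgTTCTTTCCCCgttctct
Rpl12 (chr2:32961652-32961726, plus strand): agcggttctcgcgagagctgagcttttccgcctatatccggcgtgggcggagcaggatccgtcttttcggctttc
Rplp0 (chr5:115559407-115559481, plus strand): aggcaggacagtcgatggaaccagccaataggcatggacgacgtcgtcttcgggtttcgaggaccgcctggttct
Rpl22l1 (chr3:28805448-28805522, plus strand): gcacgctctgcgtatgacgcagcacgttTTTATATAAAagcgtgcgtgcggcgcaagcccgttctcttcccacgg
A run of at least 5 pyrimidines over the start was present in 20 of the 65 promoters (30.8%), against 8.6% of 16457 promoters of autosomal protein-coding genes, 9.2% of the 5921 whose gene was called in all 10 libraries and 5.8% of 69 mitochondrial ribosomal protein promoters. Runs of at least 8 were present in 26.2% of the cytosolic ribosomal protein promoters and in 3.5% of all promoters. The longest of those shown, in Rpl27a, had 20 letters and ran past the end of the printed stretch. The letters CCGGAA, the core bound by ETS factors, were found on either strand in 46.2% of the ribosomal protein promoters and in 19.5% of all. The letters ATGGCG, the core of the YY1 motif, were found in 30.8% against 11.4%, and GGGCGG, the Sp1 box, in 55.4% against 47.3%. In promoters of genes called in all 10 libraries, the shares were 31.6% for CCGGAA, 17.1% for ATGGCG and 64.4% for GGGCGG. In mitochondrial ribosomal protein promoters they were 56.5%, 27.5% and 49.3%. The CCGGAA share was thus higher there than in the cytosolic set, and the GGGCGG share was higher among called genes. TATAAA was found in 9.2% against 13.5% of all promoters, and in Rpl22l1 it began 28 bases before the start and overlapped a reverse-strand match at 32 bases before it. GC content had a median of 57% against 56.7% of all, and CpG dinucleotides a median of 21 against 14 per window. In promoters of genes called in all 10 libraries, TATAAA was found in 7.3%, with medians of 61% GC and 22 CpG. In mitochondrial ribosomal protein promoters these values were 5.8%, 58.3% and 21. Matches of different motifs overlapped in 0 of the 65 promoters and in 0.6% of all promoters. A match of letters is a description and not a bound site.

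Sums over the distinct gene-end regions of the 86 genes were lower in old libraries, as were the sums over all genes. The ribosomal protein genes held 16152.2, 17782.6, 18560.7, 14754.4 and 11069 scaled tags in the 5 old libraries, against 18970.4, 25670.9, 20258, 23432.8 and 17325.9 in the 5 young libraries. The highest old library (replicate 3) lay above the lowest young library (replicate 5), so the ages overlapped. The mean was 15663.8 ± 2960.5 in old and 21131.6 ± 3384.5 in young libraries (SD, n = 5 each), a ratio of 0.741. The same ratio was 0.772 over all protein-coding genes and 0.761 over the mitochondrial ribosomal protein genes. IP efficiency, the share of a library's tags inside called regions per the file headers, ran from 24.53% to 35.84% in old and from 34.63% to 48.23% in young libraries, and its part in the lower sums was not tested.

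**Figure D1:**
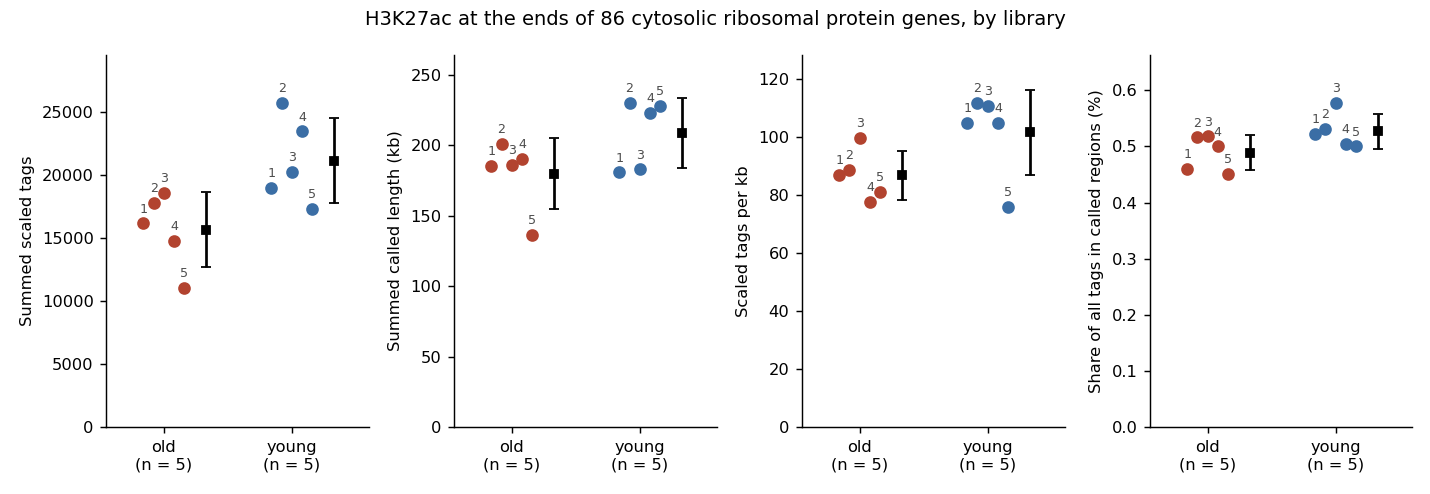
Scaled H3K27ac tags, called length in kb, scaled tags per kb and share of the library's called tags (%), each summed over the gene-end regions of the 86 ribosomal protein genes; numbered points are the old (left) and young (right) libraries, squares and bars the mean ± SD. Summed tags averaged 15663.8 in old and 21131.6 in young libraries, and young replicate 5 had the lowest tags per kb, 76.0.

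The lower sum was made of shorter regions and of fewer tags per kb. Summed called length was 179.9 ± 25.1 kb in old and 209 ± 24.8 kb in young libraries, a ratio of 0.861, and all genes had a ratio of 0.894. Scaled tags per kb were 86.8 ± 8.42 in old and 101.6 ± 14.7 in young libraries, a ratio of 0.854 against 0.856 for all genes. The median region at a ribosomal protein gene was 2039.1 ± 169.6 bp in old and 2361.6 ± 138.1 bp in young libraries, and no old library (1740.5 to 2162 bp) reached the lowest young one (2231 bp). Over all genes the median region was 1913.5 ± 126.3 bp in old and 2068.3 ± 164.3 bp in young libraries, and there the ages overlapped. Relative to each library's own called tags, the ribosomal protein genes held 0.489 ± 0.0315% in old and 0.527 ± 0.0309% in young libraries, ranges of 0.451% to 0.518% and of 0.5% to 0.577% that overlap.

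Per gene, each library was centred on its median over the genes tested, and old minus young was fitted with limma on log2(scaled tags + 1) over 6821 genes. In this fit 8 genes (0.117% of those tested) passed an adjusted p of 0.05, 3 higher and 5 lower in old libraries. None of the 71 ribosomal protein genes was among them, and the smallest adjusted p of a member was 0.2945, for Rps24. At an unadjusted p of 0.05, 3 members were lower in old libraries (Rpl12, Rps24 and Rps2) and 0 were higher, 4.23% of the 71, where 13.1% of all genes passed. On the rounded tags, edgeR called 9 genes (0.132%) and DESeq2 144 (2.11%), with 0 members in either. In data simulated on these libraries, the limma fit recovered 79% of genes changed 2-fold and 7% of those changed 1.5-fold.

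The member differences were small and spread to both sides. The log2 difference was negative for 44 members and positive for 27, with a median of -0.08, against 0.01 over all genes tested, 48.1% of which were negative. Among the 5681 other genes within the members' range of mean tags, the median was 0.02. Set against its 200 nearest genes in mean tags, 49 members lay below and 22 above the neighbours' median, with a median gap of -0.11. The range ran from -0.66 (Rpl12) to 0.81 (Rps23rg1), and the median SE of a single member was 0.149. After centring, no member had old and young libraries that did not overlap, whereas 3.61% of all genes did. Without centring, the median of all genes was -0.36 and that of the members -0.46, 70 of 71 members were negative, and 6, among them Rplp0, Rpl27a, Rps24, Rps9 and Rps23, passed the threshold as lower, 8.45% of the 71 against 11% of all genes called lower.

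**Figure D2:**
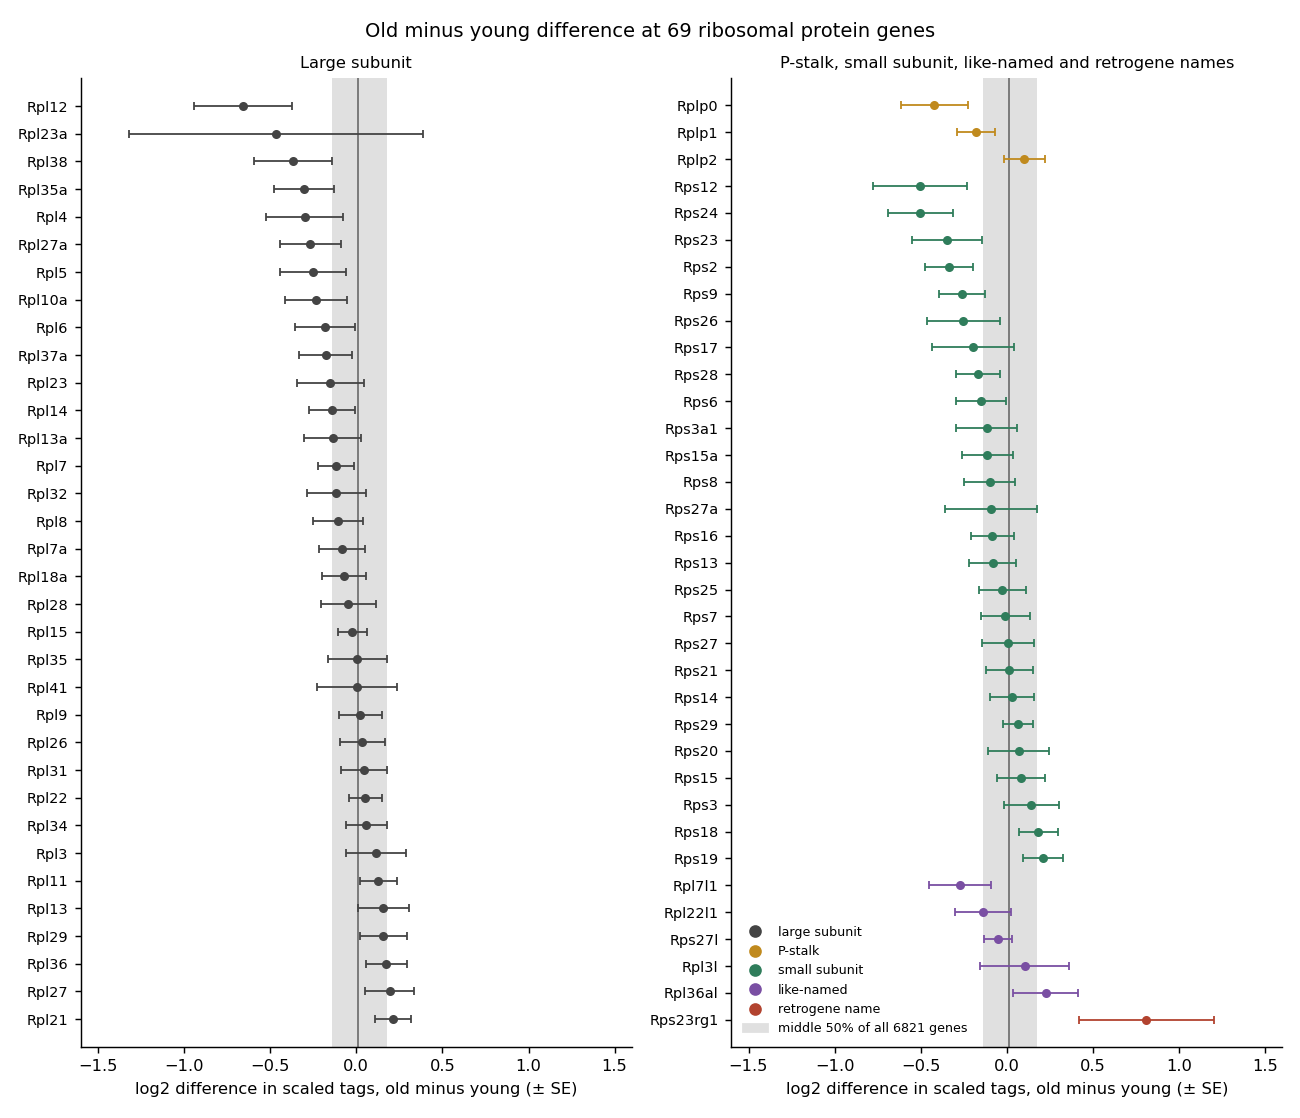
Log2 difference in scaled tags, old minus young, with its SE for 69 of the 71 ribosomal protein genes called in all libraries, by class; the grey band holds the middle 50% of all 6821 genes and the line their median. Members lie on both sides of the line, from -0.66 for Rpl12 to 0.81 for Rps23rg1, and none passed the adjusted threshold.

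Among the 37 large subunit and stalk genes tested, 22 differences were negative and the median was -0.08. Rpl12 (chr2:32961712-32964045), whose protein sits at the base of the stalk, had 116.3, 175.7, 205, 83.2 and 72.3 scaled tags in old libraries, against 233.8, 439.4, 297.6, 196.9 and 154.1 in young libraries. Old replicates 2 and 3 were above young replicate 5, so the ages overlapped. Its log2 difference was -0.66 ± 0.283 (SE; limma, unadjusted p = 0.03987, adjusted p = 0.3566). Its region also lay at the end of Lrsam1 in all 10 libraries, and with regions up to 2 kb away counted, the difference was 0.25.

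Rpl38 (chr11:114667818-114672333), which in mouse is known for its part in patterning of the skeleton, had 152.2, 125.9, 171.7, 124.6 and 102.4 scaled tags in old libraries, against 298.4, 282.2, 253.4, 187.1 and 139 in young libraries. Young replicate 5 was below old replicates 1 and 3. The log2 difference was -0.37 ± 0.227 (adjusted p = 0.5081, limma). Called length hardly differed, 1895 ± 198.5 bp in old and 2038 ± 262 bp in young libraries, and the difference lay in tags per kb, 71.4 ± 12.1 in old and 112.1 ± 21.7 in young libraries (log2 difference -0.41 ± 0.138, unadjusted p = 0.009263, adjusted p = 0.4924).

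Rpl5 and Rpl11 encode the proteins that travel with the 5S RNA and, in that particle, hold back the p53 inhibitor Mdm2. Rpl5 (chr5:107900508-107909005) had 112.9 ± 24.6 scaled tags in old and 175.6 ± 38.9 in young libraries, a log2 difference of -0.25 ± 0.192 (adjusted p = 0.5923). Rpl11 (chr4:136049354-136053393) had 177.4 ± 31.8 in old and 209.9 ± 32.6 in young libraries, a log2 difference of 0.13 ± 0.109 (adjusted p = 0.6374). Neither passed the test.

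The large subunit genes with the most tags among those called in all libraries differed in the width and density of their regions. Rpl36 averaged 583.5 scaled tags over 5948 bp (98.6 per kb, over the 10 libraries), and its region also reached the ends of Lonp1 and Micos13 in all 10. Rpl13a averaged 521.2 over 6562 bp (79.4 per kb), and shared its region with Flt3l in 10 libraries. Rpl27a averaged 506.9 over 3531 bp, 143.3 per kb, and Rpl7 504.5 over 3742 bp, 134.3 per kb. Rpl10a averaged 405.1 over 3281 bp, 124.2 per kb, with a log2 difference of -0.23 ± 0.18 (adjusted p = 0.594). Regions were shared with Rdh10 for Rpl7 in 10 libraries, with Fance for Rpl10a in 9 and with Trim66 for Rpl27a in 3. In Rpl27a, the tags were 357.5, 397.6, 564, 346.2 and 319.3 in old libraries, against 747.4, 697.4, 620.5, 576.9 and 442.28 in young libraries. Old replicate 3 alone was above young replicate 5, and the log2 difference was -0.27 ± 0.178 (adjusted p = 0.5328).

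The 3 stalk genes, whose proteins recruit the elongation factors to the ribosome, differed among themselves. Rplp0 (chr5:115559467-115563729) had 126.3, 92.9, 123.2, 85.4 and 71.5 scaled tags in old libraries, against 156.8, 167.6, 160.7, 152.9 and 220.6 in young libraries. Every old library was below every young one before centring, which was so for 4 of the 71 members (Rplp0, Rplp1, Rps16 and Rpl22l1) and for 11.8% of all genes. A region of Rplp0 also lay at the end of Gcn1 in 1 library. Its called length was 3474 bp in young replicate 5, against 1273 to 1744 bp in the other young libraries. Regions overlapping its annotated span held at most 167.6 scaled tags, so the 220.6 of young replicate 5 included a region outside it. The part of that region in the non-overlap was not tested. The log2 difference of Rplp0 was -0.42 ± 0.193 after centring (unadjusted p = 0.05175, adjusted p = 0.3839) and -0.80 without it (adjusted p = 0.0406). Rplp1 (chr9:61913283-61914510) had 162.7 ± 30.7 in old and 237.2 ± 26.6 in young libraries, a log2 difference of -0.18 ± 0.111 (adjusted p = 0.5055). Rplp2 (chr7:141447651-141451359) had 177.9 ± 12.7 in old and 216.6 ± 31.8 in young libraries, a log2 difference of 0.10 ± 0.118 (adjusted p = 0.7415), and its region also lay at Pidd1. The differences between the stalk genes were not tested.

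Among the 28 small subunit genes tested, 19 differences were negative and the median was -0.10. Rps24 (chr14:24490678-24496960), mutated in some human patients with Diamond-Blackfan anaemia, had 89.7, 85.3, 129.5, 56.7 and 65.9 scaled tags in old libraries, against 129.7, 221.7, 156.6, 152.9 and 115.8 in young libraries. Old replicate 3 was above young replicate 5 and just under young replicate 1, and the other old libraries were lower than all young ones. The log2 difference was -0.50 ± 0.19 (unadjusted p = 0.02234, adjusted p = 0.2945). Its promoter carries a pyrimidine run over the start, as printed above, and its region was shared with no other gene.

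Rps12 (chr10:23785183-23787383) had 176.8, 104.6, 240.8, 164.9 and 84.2 scaled tags in old libraries, against 343.7, 281.6, 288.8, 285.5 and 167.3 in young libraries. Young replicate 5 alone fell among the old values. The log2 difference was -0.51 ± 0.274 (adjusted p = 0.4462), and called length was 2160 ± 471.9 bp in old and 3054 ± 224.1 bp in young libraries.

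Rps2 (chr17:24718121-24721927), a protein near the messenger RNA entry channel, had 257.9, 299.6, 244, 221.1 and 198.5 scaled tags in old libraries, against 259.9, 528.6, 296.3, 552 and 439.7 in young libraries. Young replicates 1 and 3 lay with the old libraries and the other young ones stood well above. The log2 difference was -0.34 ± 0.139 (unadjusted p = 0.03284, adjusted p = 0.328). It was a difference in summed called length rather than density. The called length was 2704, 2562, 2409, 2696 and 2341 bp in old libraries, against 2414, 5296, 2494, 5458 and 6210 bp in young libraries. Tags per kb were 96.1 ± 14 in old and 99.6 ± 17.8 in young libraries. A counted region also lay at the end of Ndufb10 in all 10 libraries and of Rnf151 in 9. Regions overlapping the annotated span of Rps2 held at most 439.7 scaled tags in any library. The sums of young replicates 2 and 4 therefore included a region outside it, and its part in the difference was not tested. With young replicates 1 and 3 left out together, Rps2 was the 1 member that passed (log2 difference -0.56, adjusted p = 0.03797, limma), where 0.226% of 7948 genes were called lower. The libraries left out were the young ones that lay with the old ones for this gene. That pass therefore adds no support for a difference in Rps2.

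Rps6, whose protein is the classical substrate of S6 kinase, had 216.6, 232, 327, 216.8 and 208.1 scaled tags in old libraries, against 330.1, 479.7, 333.7, 361.7 and 241.9 in young libraries. Old replicate 3 lay among the young libraries, the other old libraries were lower than all young ones, and the log2 difference was -0.15 ± 0.147 (adjusted p = 0.6825). Rps19 (chr7:24884592-24889811), the gene most often mutated in human Diamond-Blackfan anaemia, was among the most positive members, with 297.6 ± 54.8 in old and 333.6 ± 58.9 in young libraries and a centred log2 difference of 0.21 ± 0.116 (adjusted p = 0.4571). Its old mean was thus lower in scaled tags, and its difference positive only after centring. Of the 18 genes tied to that anaemia in humans, 16 were tested, 8 were negative and 8 positive, and their median was -0.00.

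**Figure D3:**
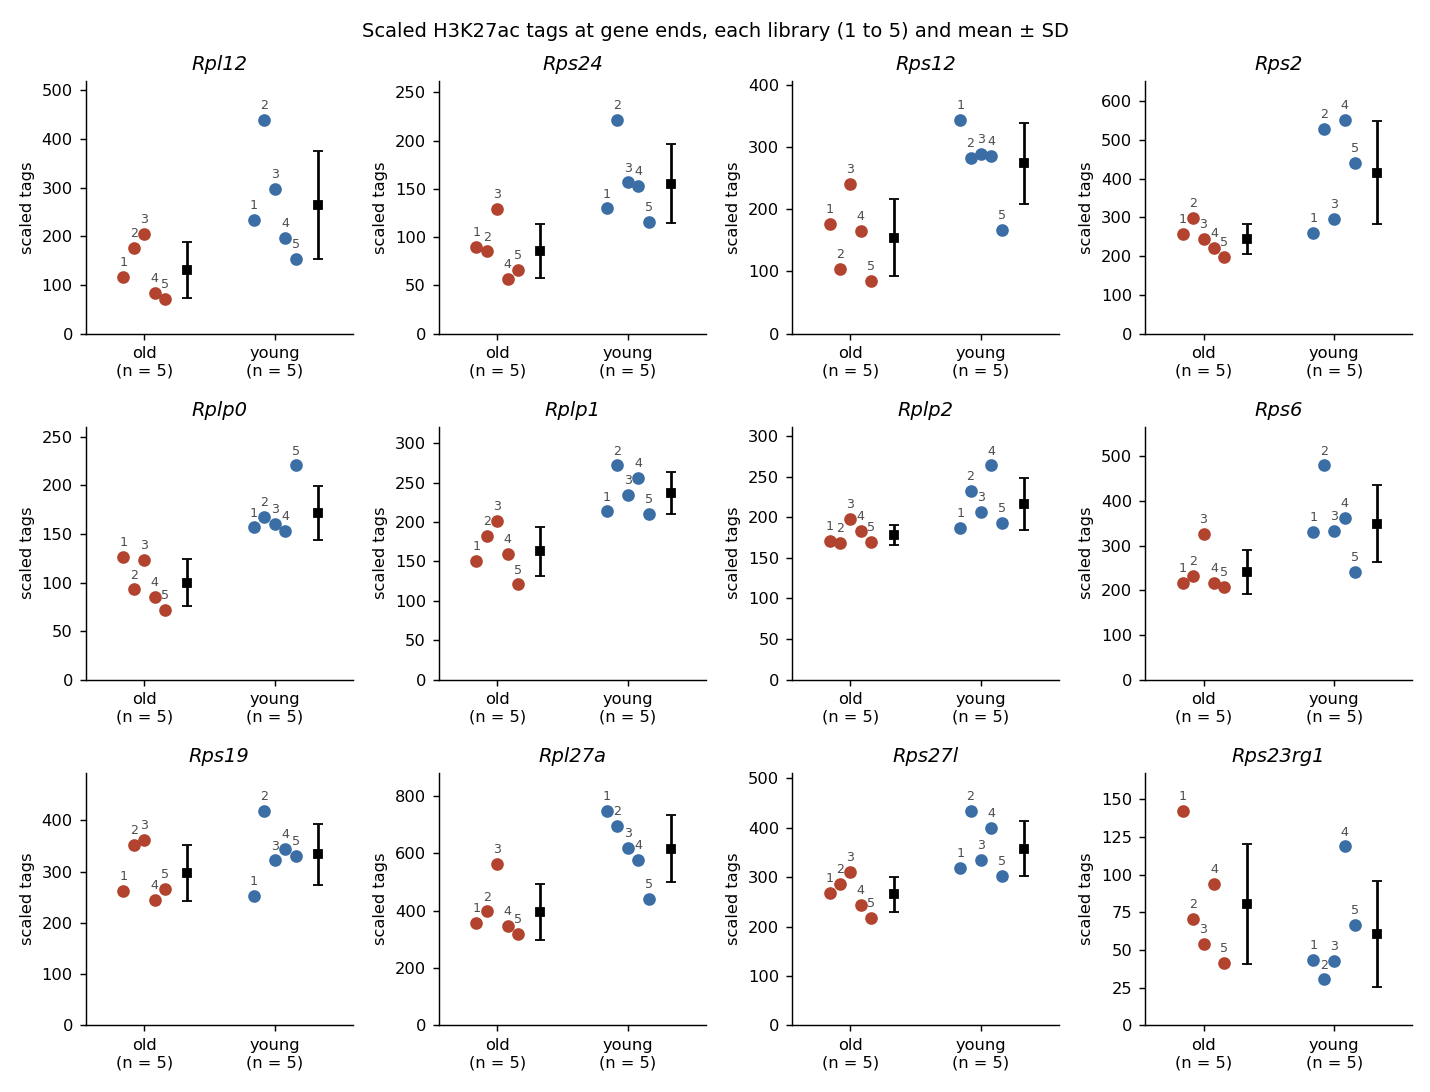
Scaled H3K27ac tags of 12 members in every library, old left and young right, numbered by replicate, with mean ± SD (n = 5). Rplp0 and Rplp1 have no overlap between ages before centring, while Rps19 and Rps23rg1 overlap widely. In Rplp2, old replicate 3 alone lies above any young library (replicates 1 and 5).

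The most positive large and small subunit members, besides Rps19, were Rpl21, Rpl27 and Rps18. Rpl21 had a log2 difference of 0.21 ± 0.106 (adjusted p = 0.4158), Rpl27 of 0.19 ± 0.142 (adjusted p = 0.5761) and Rps18 of 0.18 ± 0.113 (adjusted p = 0.509). In scaled tags the old means were the lower ones in all 3, for example 193.9 ± 24.9 in old and 219.3 ± 43.7 in young libraries for Rpl21, so their sign depends on centring. Without centring, their log2 differences were -0.16, -0.18 and -0.19.

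The lowest levels among the 71 members called in all libraries were those of Rps23rg1, Rps3, Rps20 and Rps24, at 70.5, 98.1, 117.8 and 120.4 scaled tags over the 10 libraries. Rps3, a small subunit protein that also takes part in DNA repair, had 58.4 ± 14.5 tags per kb in old and 53.5 ± 10.6 in young libraries, a centred log2 difference of 0.34 ± 0.15 in tags per kb (unadjusted p = 0.03494, adjusted p = 0.5728), with called lengths of 1564 ± 136.9 bp in old and 2015 ± 351.5 bp in young libraries. Rps20 had the shortest regions of the 71, 1220 bp, at 99.2 tags per kb. Over these 71 members, tags per kb ran from 39.2 (Rps23rg1) to 143.8 (Rps27l) with a median of 96.9, close to the 99.5 of all genes tested, and the median called length was 2282 bp against 2580 bp.

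Rpl23a had the largest SE of the 71 members tested. It had 685.8, 77.7, 630.1, 103.4 and 35.7 scaled tags in old libraries, against 214.6, 920.9, 800.2, 146.4 and 102.6 in young libraries. The 4 high libraries, 2 of each age, were those in which a counted region also lay at the ends of Nek8 and Tlcd1. Regions overlapping the annotated span of Rpl23a held at most 214.6 scaled tags in any library, so the high sums included a region outside it. The log2 difference of -0.47 had an SE of 0.854 (limma, adjusted p = 0.841).

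Like-named genes encode paralogs with tissue-restricted or specialised roles, or proteins that only share the name. The 5 that were tested had a median log2 difference of -0.05. Rps27l, a paralog induced by p53, had the most tags per kb and the smallest SE of the 71 members tested, with 268.5, 286.9, 310, 243.3 and 218.4 scaled tags in old libraries, against 318.2, 433.7, 334.4, 400.4 and 303.3 in young libraries. Old replicate 3 alone exceeded a young library, replicate 5, and the log2 difference was -0.05 ± 0.08 (adjusted p = 0.8096). Rpl22l1, the paralog of Rpl22, had 172.1 ± 19 in old and 247.1 ± 35.6 in young libraries (log2 difference -0.14 ± 0.162, adjusted p = 0.7411). Rpl7l1 had a log2 difference of -0.27 ± 0.181 (adjusted p = 0.5318), Rpl36al of 0.23 ± 0.189 (adjusted p = 0.6328) and Rpl3l, a paralog of striated muscle, of 0.10 ± 0.258 (adjusted p = 0.8908). The regions of these 3 lay in all 10 libraries also at the end of another gene, 2310039H08Rik for Rpl7l1, Mgat2 for Rpl36al and Msrb1 for Rpl3l.

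Rpl10l and Rpl39l, paralogs used in the testis, had no gene-end region in any library, and neither did the copies Rps27rt, Rpl34-ps1 and Rpl31-ps12. Absence of a call does not show absence of acetylation. Rps23rg1 (chr8:3567998-3584776), a retrogene, was the 1 copy called in all libraries and the most positive member. It had 142.2, 70.6, 54.1, 93.8 and 41.3 scaled tags in old libraries, against 43.6, 30.5, 42.9, 118.8 and 66.9 in young libraries. Old replicate 1 and young replicate 4 were high in their ages, the ages overlapped, and the log2 difference was 0.81 ± 0.39 (unadjusted p = 0.06155, adjusted p = 0.4014). Rpl37rt was called in young replicate 5 alone, at 124.2 scaled tags. That region also lay at the end of Sppl3, and no library had a region inside the span of Rpl37rt.

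Of the other members not called in all libraries, Rpl30 and Rpl37 were missed in old replicate 5 alone. Rpl30 had 112.3, 118.3, 139.6, 130.4 and 0 scaled tags in old libraries, against 181.7, 191.8, 175.7, 202.2 and 133.5 in young libraries. Rpl37 had 194.1, 170.1, 169.8, 169.1 and 0 in old libraries, against 262.1, 252.8, 286.1, 267.8 and 196.2 in young libraries. In Rpl37 every old library was below every young one, with the missed library counted as 0. Such a non-overlap before centring was found in 11.8% of all genes tested. In Rpl30 old replicate 3 was above young replicate 5. Old replicate 5 was the library with the lowest IP efficiency. Rpl24 was also missed in old replicate 5, and otherwise had 51.8 to 89.1 scaled tags in old and 62 to 125.4 in young libraries, which overlap.

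Rpl18 was missed in young replicate 1 and ran from 321.5 to 986.5 in the 9 others, with a region inside its span in all 10 libraries at 255.9 to 986.5 scaled tags. Its gene-end regions also lay at the end of Sphk2 in 3 libraries and of Dbp in 2. Rps10 was missed in old replicate 2 and young replicate 3, Rpl32l in old replicates 1 and 2, Rps19bp1 in young replicates 1 and 3 and Rpl17 in old replicate 5 and young replicate 3. Rpl17 too had regions inside its span in all 10 libraries, at 192.2 to 386.4 scaled tags. Rps19bp1, named for a protein that binds Rps19, had 904.8 scaled tags in old replicate 2 and 34.9 to 106.3 in the other old libraries. In old replicate 2, a counted region also lay at the ends of Atf4 and Mief1. Regions overlapping the span of Rps19bp1 held at most 124.1 scaled tags in any library, so the 904.8 included a region outside it. Rpl19 had a gene-end region in old replicate 4 alone, at 14.3 scaled tags, but regions inside its annotated span in all 10 libraries, with 300.8 ± 15.5 scaled tags in old and 395.3 ± 79.1 in young libraries. Its annotated ends therefore missed its acetylated stretch.

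The tag difference of a member followed both its called length and its density. Across the 71 members, the log2 difference in tags had a Spearman rho of 0.68 with that in called length and of 0.55 with that in tags per kb, and of 0.05 with the mean level. These are descriptions across genes that share the 10 libraries, and tags are by construction length times density. The median log2 difference of the members was -0.05 in called length, against 0.02 over all genes, and -0.00 in tags per kb, against 0.01. In called length, 4 members had an unadjusted p under 0.05 (5.63%, where 7.83% of all genes had), all shorter in old libraries, and in tags per kb 4 did, 3 higher and 1 lower (5.63%, where 8.56% of all genes did). None passed after adjustment, where 0.0147% of all genes did in called length and 0% in tags per kb.

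Rpl35a, chosen after its values were seen, had the opposite sign in the 2 measures. Its called length was 2113, 1446, 1876, 2019 and 1514 bp in old libraries, against 3023, 3058, 3310, 3916 and 2420 bp in young libraries, with every old library the shorter (log2 difference after centring -0.67, unadjusted p = 0.002359, adjusted p = 0.3835). Without centring, called length was lower in old libraries for 5064 of all 6821 genes, and their share without overlap is not given here. The tags per kb of Rpl35a were 61.5 ± 9.55 in old and 56.2 ± 7.87 in young libraries (log2 difference 0.36 ± 0.134, unadjusted p = 0.01589, adjusted p = 0.5048). Its scaled tags were 109.9 ± 23.1 in old and 178.2 ± 44.8 in young libraries, a centred log2 difference of -0.30 ± 0.174 (adjusted p = 0.4749).

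**Figure D4:**
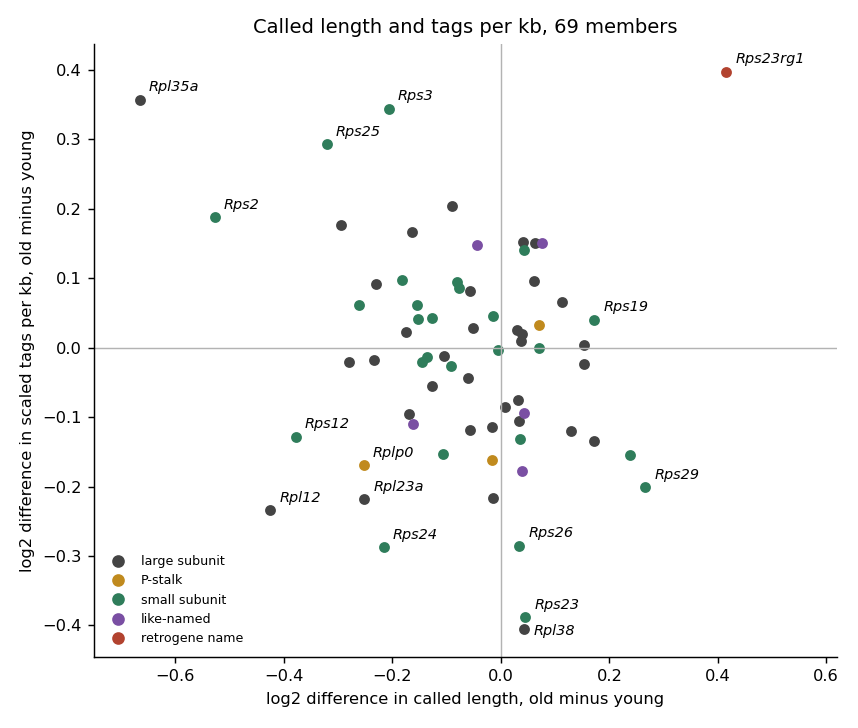
Log2 difference in called length (x axis) against that in scaled tags per kb (y axis), old minus young, for 69 of the 71 members, coloured by class. Rpl35a and Rps2 lie at the left with less summed called length in old libraries, and Rpl38 and Rps23 at the bottom with fewer tags per kb.

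Library by library, many members moved in the same direction, and the libraries in which they stood high were of both ages. After centring, the median member stood 0.159 above its own mean in old replicate 3, 0.201 in young replicate 1 and 0.141 in young replicate 3, on the log2 scale. It stood at -0.099, -0.071, 0.006 and -0.113 in old replicates 1, 2, 4 and 5, and at 0.022, -0.086 and -0.11 in young replicates 2, 4 and 5. Thus 58 of 71 members were above their own mean in old replicate 3, 57 in young replicate 1 and 54 in young replicate 3, against 17 in old replicate 1 and 17 in young replicate 5. The matching shares over all genes tested are not given here, so the movement is not shown to be particular to these genes. The mean of the library medians was -0.0236 ± 0.112 in old and 0.0336 ± 0.137 in young libraries (SD, n = 5 each), a gap smaller than the spread in either age. Leaving out single libraries gave member medians of -0.10 without old replicate 3, -0.03 without young replicate 1 and -0.06 without young replicate 3. With young replicates 1 and 3 left out together, the median was -0.0006 over 73 members, 38 negative and 35 positive. Young replicate 5 stood apart in depth, 15544145 tags against 6295930 to 9847344 in old and 7341342 at the least in young libraries, and in its estimated fragment length of 620 bp, against 440 to 444 bp in old libraries and 414 bp at the least in young ones.

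**Figure D5:**
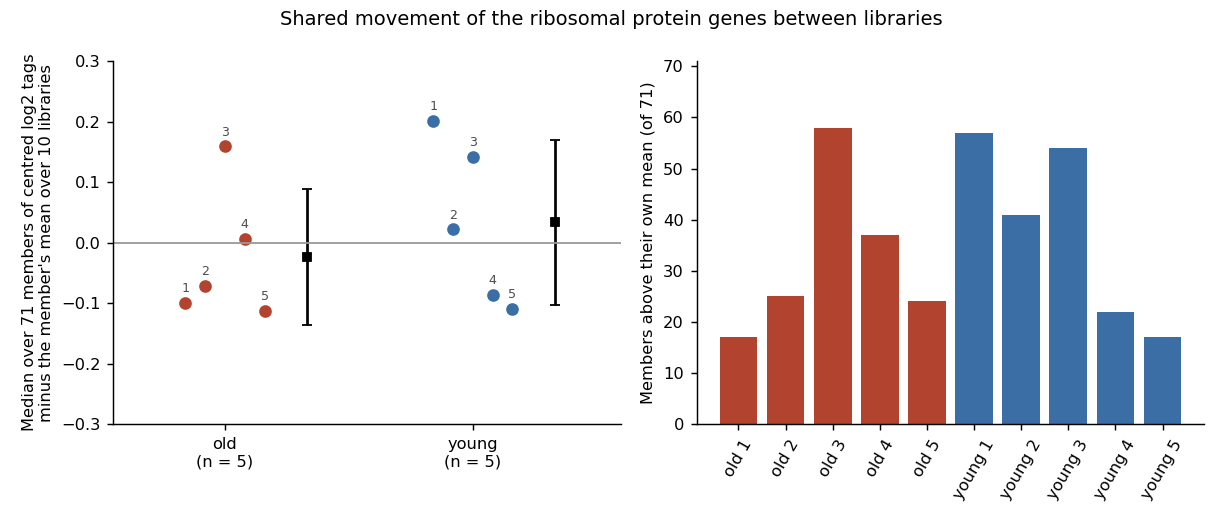
Left, the median over 71 members of centred log2 scaled tags minus the member's own mean, by library with mean ± SD; right, the number of members above their own mean. Old replicate 3 and young replicates 1 and 3 stand high, with 58, 57 and 54 of the 71 members above their mean.

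Features that the rule did not use gave the following medians. SnoRNA genes, which guide modification of ribosomal RNA and are processed out of introns, lay inside 27 members (31.4%), 54 of them in all, against 1.72% of autosomal protein-coding genes. The 24 such members tested had a median log2 difference of -0.12 with 18 negative, and the 47 others tested one of -0.03 with 26 negative. The 41 tested members that shared no gene-end region with another gene had a median of -0.07, and the 22 that shared one in all 10 libraries one of -0.05. Of the 53 tested members with a promoter window, the 17 with a pyrimidine run had a median of -0.05 and 92.4 tags per kb, and the 36 without one -0.10 and 96.8 tags per kb. None of these splits was tested.

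Other genes of ribosome production gave no call either. The 7 elongation factor and oligopyrimidine partner genes tested had a median log2 difference of -0.09, the 8 of RNA polymerase I -0.01 and the 10 regulators -0.06. Among 21 ribosome assembly genes the median was -0.12, and 5 of the 21 had an unadjusted p under 0.05, all lower in old libraries, where 893 of all 6821 genes did (13.1%), 454 of them lower. They were Ncl, Nop56, Wdr43, Gnl3 and Nhp2, and the largest was Nop56, a core protein of the box C/D particles, with 87.2 ± 52.5 scaled tags in old and 198.8 ± 36.6 in young libraries (log2 difference -1.02 ± 0.376, adjusted p = 0.2826). Of the 53 mitochondrial ribosomal protein genes tested, 33 were negative with a median of -0.09, the same sign and about the size of the cytosolic set, and 0 were called. The 3 X-linked ribosomal protein genes tested had a median of -0.11. The log2 difference of Rpl10 was -0.11 ± 0.164 (adjusted p = 0.8015) and that of Rpl36a 0.04 ± 0.337 (adjusted p = 0.9688). Rps4x had 37.4 ± 23.6 in old and 109 ± 37.9 in young libraries (log2 difference -1.26 ± 0.384, adjusted p = 0.2345).

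The labelled cell type was checked against gene-end regions of marker genes. All 10 hepatocyte markers were called, 9 of them in all libraries, with summed scaled tags of 2872 to 5870 in old and 5542 to 8476 in young libraries. Of 11 Kupffer cell and leukocyte markers 9 were at 0, among them Ptprc, Clec4f and Adgre1, while Cd68 was called in 10 libraries and Cd79a in 8, and the list summed to 235.9 to 442.2 in old and 355.5 to 569.1 in young libraries. At 0 were also 4 of 7 endothelial markers (Pecam1, Kdr, Cdh5 and Tek), 6 of 7 stellate and fibroblast markers and the cholangiocyte genes Krt19, Krt7 and Epcam, 3 of 5 on that list. The other cholangiocyte genes were Sox9, called in all 10 libraries with a mean of 319.7 scaled tags in old and 354.7 in young libraries, and Spp1, called in 4. The endothelial list summed to 0 to 57.8 in old and 0 to 26.3 in young libraries, the stellate list to 44.5 to 103.1 in old and 0 to 144 in young, and the cholangiocyte list to 221.6 to 520.1 in old and 253.2 to 580.4 in young libraries. The part of other cells in the values above was not tested.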

How the data were processed

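Used here were the lists of called regions of 10 H3K27ac libraries, and no file of the 10 input samples. Regions had been called by the authors in every library alone, against its input, with HOMER, per the file headers. Peaks of 500 bp were stitched at a distance of 1000 bp, at 4-fold over input and over the surrounding 10000 bp and a Poisson p of 1e-04. The submitters' processing notes name mm10 as build. Which aligner and HOMER version ran is not given in the sources used here. Deposited by the authors were each region's signal scaled to 10000000 tags per library and its unscaled tags, which came in steps of 0.5 and were rounded here, like estimated counts, for edgeR and DESeq2. They also deposited the input signal, the fold over input (a ratio), a score, p-values and the region length in bp, and of these the score and p-values entered no test. Per the file headers, total tags were 6295930 to 15544145 per library.

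Gene ends came from the RefSeq table of GRCm38.p6, which is the same assembly as mm10. Regions within 1 kb (1000 bp) of either end were summed per gene. limma 3.58.1 in R 4.3.3 was fitted on log2(sum + 1), each library centred on its median, over 7450 genes called in all 10 libraries, of which those with identical values counted once, leaving 6821, with Benjamini-Hochberg adjustment. A fold change is on that scale. The signed differences are old minus young. edgeR 4.0.16 (quasi-likelihood) and DESeq2 1.42.0 were alternatives, with others named in the closing section. The fit was tested on simulated data with 200 changed genes. Each library brought its own region borders, so summed tags grow with called length. Gene-end regions shared by neighbouring genes cannot be divided between them. The number of libraries limits precision, and depth intervals were not computed.

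The members and lists were chosen with earlier results of these data known. Named were any member past the threshold, the 6 most positive and 6 most negative, the 6 with the highest and 4 with the lowest mean tags, the stalk genes, Rpl5, Rpl11, Rps6, Rps19, like-named genes and those not called in all libraries. Others named are those called without centring, Rps2, Rps16, Rpl35a, the named assembly genes and Rps4x, which were picked after their values were seen. Some items are not reported here.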

Additional observations from a re-analysis of the deposited data

Results flagged for a closer look

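In 84 groups of 5 libraries, the highest or the lowest value was compared with its nearest neighbour, as a share of the group's range. Chance flags about 1 in 20 unselected groups, here 4.2, and 10 were found. The groups shared the 10 libraries, the summed measures are linked, and some genes were named because a library missed them. The 10 flags therefore do not measure an excess over 4.2.

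Among single genes, Rpl18 had 875.4 scaled tags in old replicate 2, against 354.2 to 462.2 in the other old libraries. Rps19bp1 had 904.8 in the same library, against 34.9 to 106.3. Rpl30 and Rpl37 were at 0 in old replicate 5, against 112.3 to 139.6 for Rpl30 and 169.1 to 194.1 for Rpl37 in the other old libraries. Rps6 had 327 in old replicate 3, against 208.1 to 232. Rplp0 had 220.6 in young replicate 5, against 152.9 to 167.6 in the other young libraries. Rps3 had 120.9 in young replicate 2, against 97.5 to 103.7.

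Among the sums over the 86 genes, called length was 136.31 kb in old replicate 5, against 185.47 to 200.81 kb in the other old libraries. The share of the library's called length was 0.365% in old replicate 1, against 0.391% to 0.398%. Scaled tags per kb were 76.03 in young replicate 5, against 104.86 to 111.64 in the other young libraries. The cause of none of these was tested.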

How the results depend on the processing

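Across 31 alternatives, 0 members passed in 29. The exceptions were no centring, with 6 lower, and young replicates 1 and 3 left out together, with 1 lower. The member median of -0.08 moved by more than the library spread of 0.1248 only without centring, to -0.459 in tags and -0.235 in tags per kb.

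The count of genes called, 8, was 758 without centring, 144 with DESeq2, 40 with young replicates 1 and 3 left out, 15 without genes with shared regions, 14 with cyclic loess and with a 0 bp window, 5 without replicate 5 of either age and for called length without centring, 4 at 8-fold over input, 3 with regions required in at least 5 libraries, 1 with IP efficiency as covariate and for called length, and 0 for tags per kb under the 3 scalings. Leaving out one replicate gave 3 to 17 genes, 0 members and a median of -0.121 to -0.032. The numbers do not pair the libraries (same-number correlations 0.005, 0.132, 0.12, -0.012 and -0.05), and a replicate block called 1 gene and 0 members. The log2 ratio of summed tags, -0.432, stayed within the library spread under every alternative run.

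Of 816 values of 28 named members, 3 came to pass, Rpl27a (-0.642), Rplp0 (-0.796) and Rps24 (-0.877), all without centring. A further 56 changed sign, 22 of them where neither value exceeded its SE. Of the other 34, without centring of tags these were Rpl11 -0.247, Rpl21 -0.162, Rpl27 -0.182, Rpl36 -0.2, Rpl36al -0.15, Rplp2 -0.273, Rps18 -0.194, Rps19 -0.165, Rps20 -0.307 and Rps3 -0.234. For tags per kb without centring they were Rpl11 -0.255, Rpl21 -0.08, Rpl27 -0.079, Rpl36 -0.166, Rpl36al -0.08, Rplp2 -0.199, Rps18 -0.091, Rps19 -0.191 and Rps20 -0.232. For called length without centring they were Rpl21 -0.082, Rpl27 -0.103, Rpl36 -0.032, Rpl36al -0.069, Rps18 -0.103 and Rps3 -0.352. With centring, Rpl11 was -0.024 in tags per kb, Rpl38 0.043 and Rps3 -0.207 in called length, and Rpl12 0.249 at 2 kb. In tags per kb with cyclic loess, Rpl11 was -0.012, Rpl7 0.013 and Rps6 0.004. With young replicates 1 and 3 left out, Rpl36al was -0.052 and Rpl5 0.017. The cause of these changes was not tested. A gene whose ends had no call in a setting has no value there. Total tags limit which regions were called at all.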
